A study of Homo sapiens with 2 samples.

Results

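The cells described here are those with the highest combined expression of 7 genes of the cytoskeleton, nuclear lamina and cell surface (VIM, TIMP1, S100A11, TMSB10, LGALS1, ANXA2 and LMNA) in each of 2 Ewing sarcoma cell lines, CHLA9 and TC71. For each cell, the UMIs (unique molecular identifiers, 1 per captured transcript) of each gene were scaled to 10000 UMIs per cell, and the natural logs of 1 plus these values were averaged over the 7 genes. The 10% of cells with the highest score were taken in each line, which gave 452 of 4524 kept cells of CHLA9 and 173 of 1729 of TC71, or 625 of 6253 in all. These are called marker-high cells, and the rest of the kept cells of the same line are called the other cells. The 7 genes chose the cells, so their levels describe the choice and support nothing.

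Both lines carry EWSR1-FLI1, the fusion oncoprotein that defines most Ewing sarcomas, and were profiled untreated as part of a study of the developmental states that this tumor resembles. The medium of CHLA9 was IMDM with 20% fetal bovine serum, that of TC71 RPMI with 10%, and CHLA9 was sequenced on a NovaSeq as well as a HiSeq, TC71 on the HiSeq alone, so line, medium and sequencing cannot be told apart. There was 1 droplet library per line. Cells of a library are not replicates, so no p-value is given, all intervals are 95% intervals for counting error only, and a difference between the lines was not tested.

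Ewing sarcoma cells express neural and mesenchymal genes side by side, and EWSR1-FLI1 both activates genes of its own, such as NR0B1, NKX2-2 and STEAP1, and represses genes of the mesenchymal and contractile program. VIM encodes vimentin, the intermediate filament protein of mesenchymal cells, and LMNA the lamins A and C of the nuclear envelope. TIMP1 inhibits matrix metalloproteinases, LGALS1 is galectin-1, TMSB10 a small actin-binding thymosin, and S100A11 and ANXA2 are a calcium-binding S100 protein and a membrane-binding annexin.

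A cell was kept if it had 5000 UMIs and 2000 genes or more and if mitochondrial genes took no more than 15% of its UMIs. In total 174975302 UMIs of CHLA9 and 58355173 of TC71 entered the comparison, with medians of 34656 and 33370 per cell. The libraries shared 16 barcodes, of which 3 were kept in both and 1 belonged to a marker-high cell. Markers of leukocytes and endothelium were at or near 0: PTPRC, CD3E, CD14, LYZ and MS4A1 held 3 UMIs in all in the marker-high cells of CHLA9 and 1 in those of TC71, PECAM1, VWF and KDR were at 0 in the marker-high cells of both lines, and CDH5 held 4 UMIs in CHLA9 and 0 in TC71.

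The 7 genes lie on different chromosomes or far apart, and their promoters were searched for 3 motifs. RefSeq promoters on GRCh38.p14 were found for 6 of the 7 genes, and the 250 bases before the start were searched. The GC box GGGCGG, on either strand, was present in 6 of 6, against 42.3% of 27305 promoters. TATAAA and the AP-1 motif TGANTCA were each present in 1 of the 6, that of ANXA2, against 7.17% and 6.6% of all promoters. The promoters of VIM (chr10:17227991-17228240, plus strand), TIMP1 (chrX:47582186-47582435, plus strand), ANXA2 (chr15:60397987-60398236, minus strand) and TMSB10 (chr2:84905406-84905655, plus strand) are shown because these genes span the range from 1 to 5 GC boxes. Capitals mark GC boxes and, in ANXA2, also the AP-1 and TATA matches. A match is a description of the letters and no evidence of binding.
VIM: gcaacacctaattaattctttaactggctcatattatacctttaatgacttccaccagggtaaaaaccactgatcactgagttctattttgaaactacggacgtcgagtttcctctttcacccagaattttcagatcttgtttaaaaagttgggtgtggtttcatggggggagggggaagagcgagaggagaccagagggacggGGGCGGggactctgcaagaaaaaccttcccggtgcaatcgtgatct
TIMP1: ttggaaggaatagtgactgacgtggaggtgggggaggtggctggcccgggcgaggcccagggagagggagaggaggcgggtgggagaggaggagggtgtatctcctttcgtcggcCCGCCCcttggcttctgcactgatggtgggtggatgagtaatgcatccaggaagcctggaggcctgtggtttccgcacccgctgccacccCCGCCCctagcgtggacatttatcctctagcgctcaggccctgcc
ANXA2: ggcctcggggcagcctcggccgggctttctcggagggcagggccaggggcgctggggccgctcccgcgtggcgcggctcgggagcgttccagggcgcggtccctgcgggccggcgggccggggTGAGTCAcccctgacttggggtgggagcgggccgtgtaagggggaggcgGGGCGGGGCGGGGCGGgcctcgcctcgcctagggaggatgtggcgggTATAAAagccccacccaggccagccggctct
TMSB10: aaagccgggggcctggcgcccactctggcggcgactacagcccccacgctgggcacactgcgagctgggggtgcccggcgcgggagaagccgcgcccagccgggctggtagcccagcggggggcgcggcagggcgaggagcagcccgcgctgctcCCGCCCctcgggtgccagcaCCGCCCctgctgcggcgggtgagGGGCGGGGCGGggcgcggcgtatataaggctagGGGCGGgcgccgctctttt

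The score had no gap at the limit. In CHLA9 the last cell inside scored 1.94942 and the first cell outside 1.94914, with a median of 1.698 over all kept cells and an SD of 0.201. In TC71 these values were 1.90069, 1.90017, 1.640 and 0.206. The marker-high cells are thus the upper end of a continuous range in each line.

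By the choice itself, all 7 genes were higher in the marker-high cells. Levels are given on the usual CPM scale, as the summed UMIs of a gene over the summed UMIs of all genes in the cells named. In CHLA9, VIM stood at 1090.0 CPM in the marker-high cells and 671 in the other cells, a ratio of 1.62. The widest ratio in this line was that of TIMP1, at 142 against 59.97 CPM (2.37), and the narrowest that of TMSB10, at 3296 against 2756 CPM (1.20). In TC71, VIM stood at 1860.3 against 1191 CPM (1.56), TIMP1 at 1537 against 911 CPM (1.69) and LGALS1 at 255 against 78.6 CPM, the widest ratio of the 7 in this line (3.25). The remaining genes had ratios from 1.49 to 1.83 in CHLA9 and from 1.37 to 1.89 in TC71.

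The distributions of single cells overlapped for every marker. In CHLA9, VIM ran from 592 CPM at the lower 10% limit of the marker-high cells through a median of 984 to 1625 CPM at the upper 10% limit, and from 299.6 through 636 to 1085 CPM in the other cells. The upper 10% of the other cells thus had more VIM than the median marker-high cell. TIMP1 had no UMI in 31 of the 452 marker-high cells of CHLA9, and LGALS1 none in 13 of the 173 of TC71. For any single marker, between 26.5% and 40.7% of the marker-high cells of CHLA9 and between 34.1% and 39.9% of those of TC71 lay in the top 10% of all kept cells for that gene.

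The 7 genes varied together only weakly. Over the 21 pairs of markers, Spearman's rho across the 4524 cells of CHLA9 ran from −0.0565 to 0.261 with a median of 0.121, and across the 1729 cells of TC71 from −0.148 (VIM and LGALS1) to 0.405 (VIM and TMSB10) with a median of 0.144. These points share a library and a depth per cell, and rho is a description. In CHLA9, 181 marker-high cells were in the top 10% for 2 of the 7 genes, 118 for 3, 90 for 1 and 10 for none, 3 cells for 6 and 0 for all 7. In TC71 the most frequent numbers were 3 genes (54 cells) and 2 genes (51 cells), and 0 cells were in the top 10% for all 7. Most marker-high cells therefore combined high levels of 2 or 3 genes, and not the same ones.

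To take a gene's own counts out of the choice, cells were also chosen on the other 6 genes and the level of the left-out gene was read. In CHLA9, LGALS1 then had a ratio of 1.36, TIMP1 1.33, ANXA2 1.3, VIM 1.27, LMNA 1.22, S100A11 1.18 and TMSB10 1.12. In TC71 the ratios were 1.59 for LGALS1, 1.48 for LMNA, 1.40 for S100A11, 1.35 for TIMP1, 1.33 for VIM, 1.32 for ANXA2 and 1.25 for TMSB10. All 14 ratios lay above 1 with their counting intervals, and all were smaller than when the gene helped to choose the cells. Of the genes compared below, 0.257% had a ratio at or above that of LGALS1 in CHLA9 and 0.169% in TC71, while 6.09% reached that of TMSB10 in CHLA9 and 2.62% in TC71. Because the 7 genes were loosely coupled, and 6 of 24 matrix and mesenchymal genes were called higher in CHLA9 but 1 of 11 in TC71, the cells are named by their rule and not as a mesenchymal cell type.

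**Figure D1:**
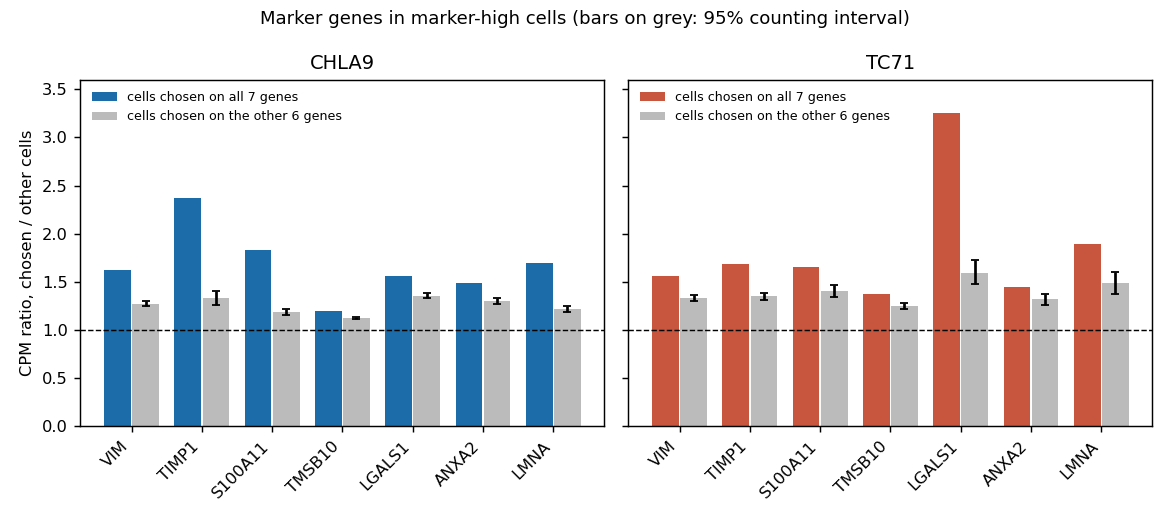
CPM ratios of the 7 marker genes between chosen and other cells in CHLA9 (left) and TC71 (right). Colored bars show cells chosen on all 7 genes and grey bars cells chosen on the other 6 genes, with 95% counting intervals; the grey bars run from 1.12 to 1.36 in CHLA9 and from 1.25 to 1.59 in TC71, each lower than its colored neighbor.

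The marker-high cells were somewhat smaller in RNA content. Their median was 30722.5 UMIs in CHLA9 against 35054.5 in the other cells, and 30123 against 33720 in TC71. After thinning to 5000 UMIs, the median number of genes per cell was 2251 against 2293 in CHLA9 and 2069 against 2143 in TC71. Mitochondrial genes took a median of 7.89% against 7.56% of UMIs in CHLA9 and 8.09% against 9.12% in TC71. The median doublet score of Scrublet was 0.0610 against 0.0637 in CHLA9 and 0.0559 against 0.0599 in TC71, so marker-high cells did not score higher as doublets. Scrublet marked too few cells of TC71 to be used as a filter, and doublets were not removed.

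The comparison across all other genes asked which genes went with the 7 markers. A gene entered at 20 CPM or more over all kept cells of the line, was called higher at a CPM ratio of at least 1.3 and lower at a ratio of at most 0.769, and the 7 markers were left out. In CHLA9, 39 of 6605 genes (0.59%) were higher in the marker-high cells and 215 (3.26%) lower. In TC71, 79 of 5922 genes (1.33%) were higher and 581 (9.81%) lower. Of the 5378 genes compared in both lines, 0.353% were higher and 3.09% lower in CHLA9 and 1.02% and 9.59% in TC71. Among them, 8 (0.149%) were higher in both, 69 (1.28%) lower in both and 0 called in opposite directions. The median log2 ratio of all genes compared was −0.04 in CHLA9 and −0.09 in TC71, beside which the values below are read. Across the 5378 genes the log2 ratios of the lines had a Spearman's rho of 0.568, a value across genes, which are not independent.

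**Figure D2:**
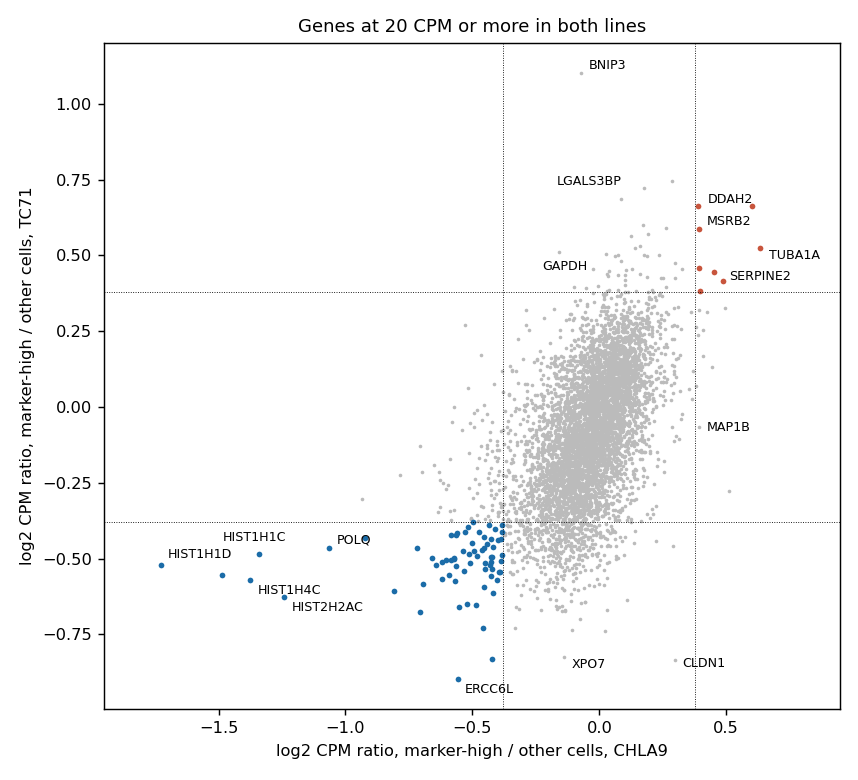
Log2 CPM ratio between marker-high and other cells in CHLA9 (horizontal) and TC71 (vertical) for the 5378 genes at 20 CPM or more in both lines, without the 7 markers. Dotted lines mark the limits of the calls, red points the 8 genes higher and blue points the 69 genes lower in both lines; histone genes extend far to the left, and BNIP3 stands alone at the top.

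Of the 8 genes higher in the marker-high cells of both lines, those described here are TUBA1A, DDAH2, MSRB2, NOL3, SERPINE2, ITGB2 and MYL12A. TUBA1A, an alpha-tubulin of neurons and other cells, stood at 195 against 126 CPM in CHLA9 (ratio 1.55, 1.49 to 1.61) and at 283 against 197 CPM in TC71 (1.44, 1.36 to 1.52). SERPINE2, a secreted inhibitor of thrombin and urokinase, had ratios of 1.37 and 1.36. MYL12A, a regulatory light chain of nonmuscle myosin, was the most abundant of those named, at 360 against 274 CPM in CHLA9 (1.32) and 435 against 334 CPM in TC71 (1.3). It was the single actomyosin gene called higher in both lines. DDAH2 had ratios of 1.31 and 1.58, MSRB2, a methionine sulfoxide reductase, of 1.31 and 1.5, NOL3 of 1.40 and 1.33, and ITGB2, the leukocyte integrin beta-2 chain, of 1.31 and 1.37. Several of these lie close to the limit of 1.3. Of the 8, 2 were under 20 CPM in the other cells of a line and so passed the filter only through the marker-high cells. One of these was NOL3 in CHLA9, at 27.7 against 19.8 CPM. TUBA1A rose along the score, from 101 CPM in the lowest of 10 equal groups of CHLA9 cells to 195 in the highest, and from 166 to 284 CPM in TC71.

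In CHLA9, several genes of the extracellular matrix were higher. COL1A1, the alpha-1 chain of type I collagen, had the largest ratio of all 6605 genes: it stood at 100.3 CPM in the marker-high cells (95.4 to 105) and 51.7 CPM in the other cells (50.6 to 52.8), a ratio of 1.94 (1.84 to 2.05). It was present in 81.0% of the marker-high cells and 68.1% of the others, and the cell with the most COL1A1 held 2.13% of the UMIs of the marker-high cells, so no single cell carried the difference. Along the 10 groups of the score, COL1A1 rose from 31.3 to 100.3 CPM without a reversal. Of 24 matrix and mesenchymal genes compared in this line, 6 were higher (COL1A1, COL3A1, COL5A1, COL6A1, ACTA2 and PDGFRB) and 0 lower, against 0.59% and 3.26% of all genes, and the median log2 ratio of the list was 0.18 against −0.04. COL3A1 stood at 33.9 against 21.9 CPM (1.55), PDGFRB, a growth factor receptor of fibroblasts and pericytes, at 30.4 against 22.5 CPM (1.35), and ACTA2, smooth muscle actin, at 41.0 against 25.7 CPM (1.6). COL1A2, the partner chain of COL1A1, was not called, at 244 against 199 CPM (1.23), and TIMP3 had a ratio of 0.791. COL1A1, COL3A1 and PDGFRB also belong to the 8 fibroblast markers, of which 4 were compared in CHLA9.

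Several of these genes were low in or nearly absent from TC71. COL1A1 stood there at 11.7 against 10.0 CPM (1.17, 0.88 to 1.52) and ACTA2 at 9.77 against 8.996 CPM. COL3A1 stood at 7.47 against 10.9 CPM (0.684, 0.481 to 0.947), on the other side of 1 from its ratio in CHLA9. COL1A2 had 0 UMIs in the marker-high cells and 2 in the others. Of the 8 fibroblast markers, 0 reached 20 CPM. The 11 matrix and mesenchymal genes compared in TC71 gave 1 higher gene (SPARC, 77.7 against 54.1 CPM, 1.44) and 1 lower gene (CDH11, a mesenchymal cadherin, 69.5 against 98.6 CPM, 0.705). Over all genes 1.33% were higher and 9.81% lower. The median log2 ratio of the list was −0.18, below the −0.09 of all genes. Of the collagen genes named here, COL5A2 could be compared in both lines and was called in neither, at 51.4 against 43.1 CPM in CHLA9 (1.19) and 34.9 against 39.4 CPM in TC71 (0.883, 0.755 to 1.03). COL1A1, COL1A2 and COL3A1 were under 20 CPM in TC71, so they did not enter the comparison there and are given as values only.

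LGALS3 and PGF had the largest ratios in CHLA9 beside COL1A1 and ACTA2. LGALS3, galectin-3, stood at 36.1 against 20.0 CPM (1.81, 1.65 to 1.98), and PGF, a growth factor of the VEGF family, at 37.3 against 23.5 CPM (1.59, 1.45 to 1.73). Both were under 20 CPM over all cells of TC71, where their levels were 24.9 against 9.05 CPM for LGALS3 (2.75, 2.25 to 3.34) and 29.9 against 17.7 CPM for PGF (1.68, 1.41 to 1.998). PGF was unevenly spread: 10 of the 452 marker-high cells of CHLA9 held 33.2% of its UMIs there, against 13.4% for LGALS3.

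In TC71, the largest ratios belonged to genes of other kinds. PRPH, the neuronal intermediate filament peripherin, stood at 49.98 against 21.02 CPM (2.38, 2.07 to 2.72), and in CHLA9 at 5.76 against 3.1 CPM (1.86, 1.47 to 2.34). BNIP3, a mitophagy receptor induced by hypoxia, stood at 169 against 78.5 CPM (2.15, 1.99 to 2.31), and in CHLA9 at 53.7 against 56.4 CPM (0.952, 0.885 to 1.02). DDIT4, a stress-induced inhibitor of mTORC1, stood at 45.8 against 21.7 CPM (2.11, 1.82 to 2.42), but 62 of its 239 UMIs in the marker-high cells came from a single cell. PRPH and BNIP3 were also concentrated, with 38.7% and 36.8% of their UMIs in 10 of the 173 marker-high cells, and BNIP3 was found in 78.6% of them and 77.4% of the other cells. ASS1, an enzyme of arginine synthesis, stood at 46.1 against 25.8 CPM (1.79), with 33.2% of its UMIs in 10 cells.

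S100A10, the partner of the marker ANXA2 in the annexin A2 tetramer, rose with the markers in TC71. It stood at 158 against 78.9 CPM (2.0, 1.86 to 2.16), was found in 89.6% of marker-high and 81.6% of other cells, and climbed along all 10 groups of the score from 49.96 to 158 CPM. In CHLA9 it was near 0, at 8.54 against 2.24 CPM (3.81, 3.09 to 4.66), and 48.5% of its UMIs in the marker-high cells came from 2 cells. Of the S100 proteins and annexins other than the markers, 2 of 5 compared in CHLA9 were called higher, against 0.59% of all genes, S100A13 (48.3 against 36.8 CPM, 1.31) and ANXA5 (50.9 against 39.1 CPM, 1.3), and in TC71 2 of 7, against 1.33%, S100A10 and ANXA1 (490.2 against 377 CPM, 1.3). None was lower in either line, and the median log2 ratio of the list was 0.15 in both.

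Those 2 cells of CHLA9 stood apart. They were found after the values were seen, as the cells with at least 10 UMIs of NEFM, the medium neurofilament chain. They held 281 of the 284 NEFM UMIs of the whole library (31 and 250), 449 of its 877 UMIs of TMSB4X, a thymosin of which most CHLA9 cells had no UMI, and 85 of the 710 UMIs of ANXA1 in the marker-high cells. Both had COL1A2, at 25 and 28 UMIs, a gene with 2 UMIs in all of TC71, and both had NR0B1 and PRKCB, at 11 and 14 and at 20 and 29 UMIs. They had 56071 and 62500 UMIs and doublet scores of 0.0256 and 0.0276. Of the markers, VIM and TIMP1 stood at 2986 and 489 CPM in these 2 cells, against 671 and 59.97 in the other cells of CHLA9. TMSB10 and LGALS1 were below those cells, at 1425 against 2756 and at 211 against 640 CPM. In the other cells of TC71, TMSB10 stood at 1361 and LGALS1 at 78.6 CPM. CAV1 stood at 2151 CPM in the 2 cells, 549 in the other cells of CHLA9 and 1439 in those of TC71. The origin of the 2 cells was not tested. Without them S100A10 in CHLA9 stood at 4.44 against 2.24 CPM (ratio 1.98), TMSB4X at 4.04 against 2.29 CPM in place of 33.1 against 2.29 CPM, and ANXA1 at 40.8 against 16.2 CPM (2.51). The number of genes called in CHLA9 without them was 39 higher and 204 lower.

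Most genes of the actin cytoskeleton stayed inside the limits of a call. Of 40 actomyosin and thymosin genes compared in CHLA9, 1 was higher (MYL12A) and 0 lower, against 0.59% and 3.26% of all genes. In TC71, 3 of 40 were higher (TMSB4X, MYL12A and RHOC) and 1 lower (MYH10, 43.1 against 56.3 CPM), against 1.33% and 9.81%. The ratio was above 1 for 35 of the 40 in CHLA9 and for 25 of the 40 in TC71. The median log2 ratios were 0.10 and 0.05, against −0.04 and −0.09 of all genes. RHOC, a small GTPase of cell motility, stood at 66.8 against 48.7 CPM in TC71 (1.37) and at 67.0 against 53.4 CPM in CHLA9 (1.25).

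Of the other genes of the nuclear envelope, LMNB1 and TMPO did not follow LMNA. LMNB1, lamin B1, had ratios of 0.803 (0.771 to 0.836) in CHLA9 and 0.794 (0.705 to 0.893) in TC71, and TMPO, a lamina-associated protein, of 0.728, a call, and 0.795. TMPO is also among the G2M genes used to score the phase. EMD, emerin, had ratios of 1.09 and 0.88. BANF1, another gene of the nuclear envelope, had log2 ratios of 0.06 in CHLA9 and 0.13 in TC71, inside the limits of a call. Of 11 lamins and intermediate filament genes compared in CHLA9, 0 were higher and 2 lower (TMPO and NEFH), against 0.59% and 3.26% of all genes. In TC71, also with 11 compared, KRT18 was higher (403 against 285 CPM, 1.41, 1.35 to 1.48) and 0 were lower, against 1.33% and 9.81%. KRT18 is a keratin of simple epithelia, with a ratio of 1.18 in CHLA9. The other 4 epithelial markers stayed under 20 CPM in both lines, with CDH1 at 0 UMIs in all marker-high cells and EPCAM at 3 UMIs in those of CHLA9 and 5 in those of TC71. KRT8, the partner of KRT18, stood at 10.7 against 6.61 CPM in CHLA9 (1.62, 1.37 to 1.92) and at 11.5 against 8.34 CPM in TC71 (1.38, 1.03 to 1.81).

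Of the gene lists, histones had the lowest median ratio in both lines. In CHLA9, 6 of 7 histone genes compared were lower, against 3.26% of all genes, with a median log2 ratio of −1.38, and in TC71 5 of 7, against 9.81%, with a median of −0.52. HIST1H4C, the most abundant, stood at 637 against 1652 CPM in CHLA9 (0.385, 0.378 to 0.393) and at 880.3 against 1306 CPM in TC71 (0.674, 0.654 to 0.694). The linker histone HIST1H1D stood at 40.4 against 134 CPM in CHLA9 (0.302) and at 20.9 against 30.0 CPM in TC71 (0.697). HIST1H1B had the lowest ratio of all genes compared in CHLA9, at 44.99 against 177 CPM (0.254, 0.235 to 0.274), and stood at 3.45 against 11.1 CPM in TC71. These mRNAs are made mainly while DNA is replicated, and most lack a poly(A) tail.

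Part of the genes of DNA replication and mitosis were lower. In CHLA9, 14 of 38 replication genes were lower, against 3.26% of all genes, and 0 higher, among them PCNA, FEN1, RRM1, RRM2, FANCI and FANCD2, with a median log2 ratio of −0.35. In TC71, 6 of 37 were lower and 0 higher, a share of the list not far above the 9.81% of all genes, with a median of −0.17 against −0.09. RRM2, the small subunit of ribonucleotide reductase, stood at 157 against 240 CPM in CHLA9 (0.653, 0.627 to 0.681) and at 162 against 193 CPM in TC71 (0.84, not called). FANCD2, of the Fanconi anemia pathway, had ratios of 0.767 and 0.713. Of 30 kinesins and mitotic genes, 8 were lower and 1 higher in CHLA9, against 3.26% and 0.59% of all genes, and 6 lower and 1 higher in TC71, against 9.81% and 1.33%. MKI67, the proliferation antigen Ki-67, stood at 332 against 490 CPM (0.677) and at 234 against 313 CPM (0.746). The mitotic genes did not all follow. PTTG1, securin, was higher in CHLA9 at 236 against 168 CPM (1.41, 1.36 to 1.46) and had a ratio of 1.25 in TC71, CDC20 had ratios of 1.14 and 1.3, a call in TC71, and CCNB2 of 1.21 and 1.24. Genes lower in both lines with other roles in replication and chromosome segregation were POLQ (0.478 and 0.724), ERCC6L (0.679 and 0.538), STIL (0.571 and 0.657), CDCA5 (0.613 and 0.626) and ESCO2 (0.528 and 0.742).

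The phase of each cell, scored with Seurat from S and G2M genes that include none of the 7 markers, moved with the score. Of the marker-high cells of CHLA9, 46.2% (41.6 to 51.0) were scored as G1 against 20.2% (18.96 to 21.5) of the other cells, 22.8% against 38.1% as S and 31.0% against 41.7% as G2M. In TC71, 46.8% (39.2 to 54.5) were scored as G1 against 22.3% (20.3 to 24.5), 19.1% against 31.8% as S and 34.1% against 45.9% as G2M. A G1 score means that neither gene set was above its controls. When genes found in fewer than 10 cells were left out of the scoring, the share in TC71 was 27.7% against 11.4%, and in CHLA9 45.6% against 19.9%. With all cells thinned to 10000 UMIs and the shallower ones left out, it was 26.7% against 10.5% in TC71 and 48.6% against 21.7% in CHLA9. The level of the share in TC71 thus depended on the scoring, while the marker-high cells had the larger share in each. Of the marker-high cells, 23.2% in CHLA9 and 25.4% in TC71 were also among the 10% of cells lowest in S and G2M genes, and since these sets are of equal size the shares are the same from either side.

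**Figure D3:**
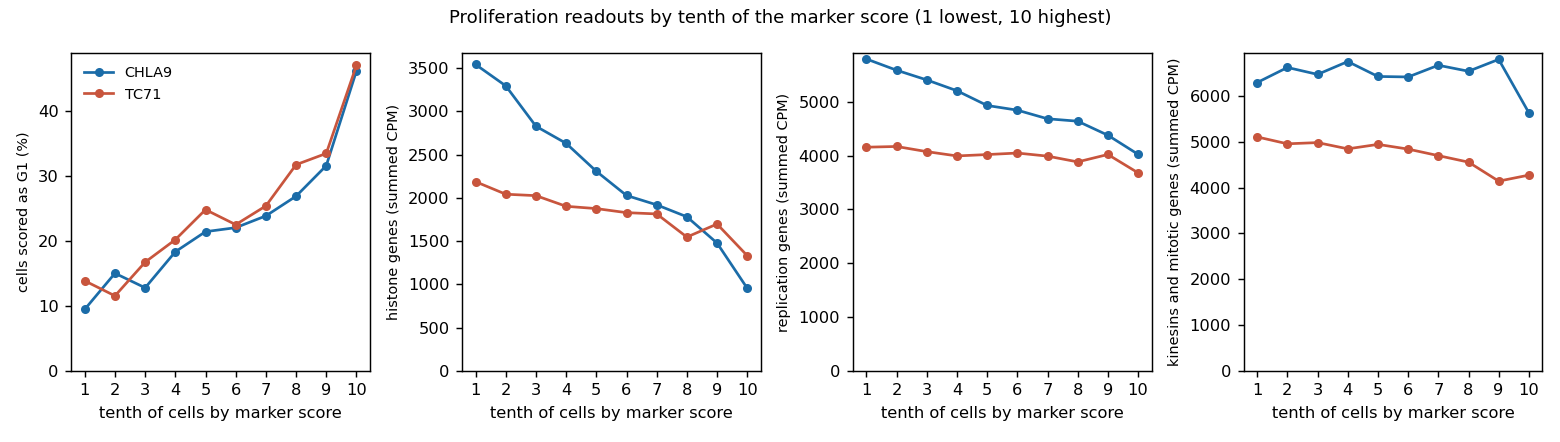
Share of cells scored as G1 (in percent) and summed CPM of histone, replication, and kinesin and mitotic genes, in 10 equal groups of the kept cells of CHLA9 (blue) and TC71 (red) ordered by the marker score. G1 climbs from 9.49% to 46.2% in CHLA9 and from 13.9% to 47.1% in TC71, and histone genes fall from 3541 to 954 CPM and from 2186 to 1331 CPM.

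The change with the score was graded. The G1 share rose from 9.49% in the lowest of the 10 groups of CHLA9 to 31.6% in the ninth and 46.2% in the highest, and in TC71 from 13.9% to 33.5% and 47.1%. Summed histone genes fell at each step in CHLA9, from 3541 to 954 CPM, and from 2186 to 1331 CPM in TC71 with a reversal at the ninth group. Summed replication genes fell at each step in CHLA9, from 5794 to 4023 CPM. In TC71 they started at 4155 CPM and moved up and down to 4019 CPM in the ninth group, with 3679 CPM in the highest. Kinesins and mitotic genes showed no such gradient in CHLA9: the first 9 groups lay between 6296 and 6801 CPM, and the highest at 5634 CPM. In TC71 they went from 5107 CPM in the lowest group to 4142 CPM in the ninth and 4273 CPM in the highest.

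Since phase moved with the score, the genes above were also compared within each phase. In CHLA9, COL1A1 had ratios of 1.58 in G1, 2.14 in S and 2.09 in G2M, LGALS3 of 2.0, 1.52 and 1.90, and TUBA1A of 1.49, 1.52 and 1.33. In TC71, S100A10 had ratios of 1.90 in G1, 1.80 in S and 2.10 in G2M, and PRPH of 1.79, 2.12 and 2.89, while BNIP3 had 2.38 in G1 and 1.92 in G2M but 1.21 in S, where there were 33 marker-high cells. HIST1H4C was lower within each phase in CHLA9 (0.54, 0.642 and 0.415), and in TC71 had ratios of 0.49, 0.708 and 0.963. When the top 10% was taken within each phase in place of over all cells, 38 genes were lower in CHLA9 against 215, 402 in TC71 against 581, and 6 in both lines against 69. When it was taken within 10 groups of total UMIs, 60 were lower in CHLA9, 363 in TC71 and 12 in both lines. When the marker-high cells as first chosen were set against the other cells of their phase, the counts did not fall in this way. In CHLA9, 108 of 6605 genes were lower in G1, 299 in S and 171 in G2M. In TC71, 622 of 5922 were lower in G1, 947 in S and 673 in G2M. These comparisons hold fewer cells and so more counting error. The number of lower genes thus depended on how the cells were chosen and compared, and the cause was not tested. Taken within each phase, of the 39 genes higher in CHLA9, 21 were still called, and of the 79 in TC71, 59, while 2 genes were higher in both lines against 8.

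The targets of the fusion had medians close to those of all genes. Of 22 genes activated by EWSR1-FLI1, 0 were called in CHLA9, with a median log2 ratio of 0.03, and 5 of 22 were lower in TC71 (STEAP2, EZH2, PAX7, E2F3 and AURKA), against 9.81% of all genes, with a median of −0.06 against −0.09 of all genes. Of these, EZH2, E2F3 and AURKA are also genes of proliferating cells. The genes that mark Ewing sarcoma were level: the ratios of CD99, STEAP1, NR0B1, NKX2-2 and PRKCB ran from 0.997 to 1.13 in CHLA9, where NKX2-2 was under 20 CPM, and from 1.01 to 1.14 in TC71. NR0B1, an orphan nuclear receptor induced by the fusion, stood at 53.9 against 47.5 CPM in CHLA9 (1.13, 1.05 to 1.22) and at 137 against 121 CPM in TC71 (1.14, 1.05 to 1.23). FLI1, whose 3' end is part of the fusion transcript, stood at 35.5 against 38.4 CPM in CHLA9 (0.924, 0.846 to 1.01). In TC71 it stood at 17.0 against 23.6 CPM (0.723, 0.576 to 0.897), a lower call, read from 89 UMIs in the marker-high cells. Within phases its ratio in TC71 was 0.781 (0.529 to 1.12) in G1, 0.947 (0.586 to 1.45) in S and 0.654 (0.444 to 0.932) in G2M. EWSR1 had ratios of 1.00 and 0.791. The libraries were made with a 3' kit and the fusion transcript ends in FLI1, so the UMIs of EWSR1 are no measure of the fusion. Of the genes repressed by the fusion and the targets of YAP and TEAD, 4 of 26 could be compared in CHLA9 and 2 in TC71, where TEAD1 was lower, and 0 were higher. In both lines most of this list was under 20 CPM, so the list as a whole could not be read.

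**Figure D4:**
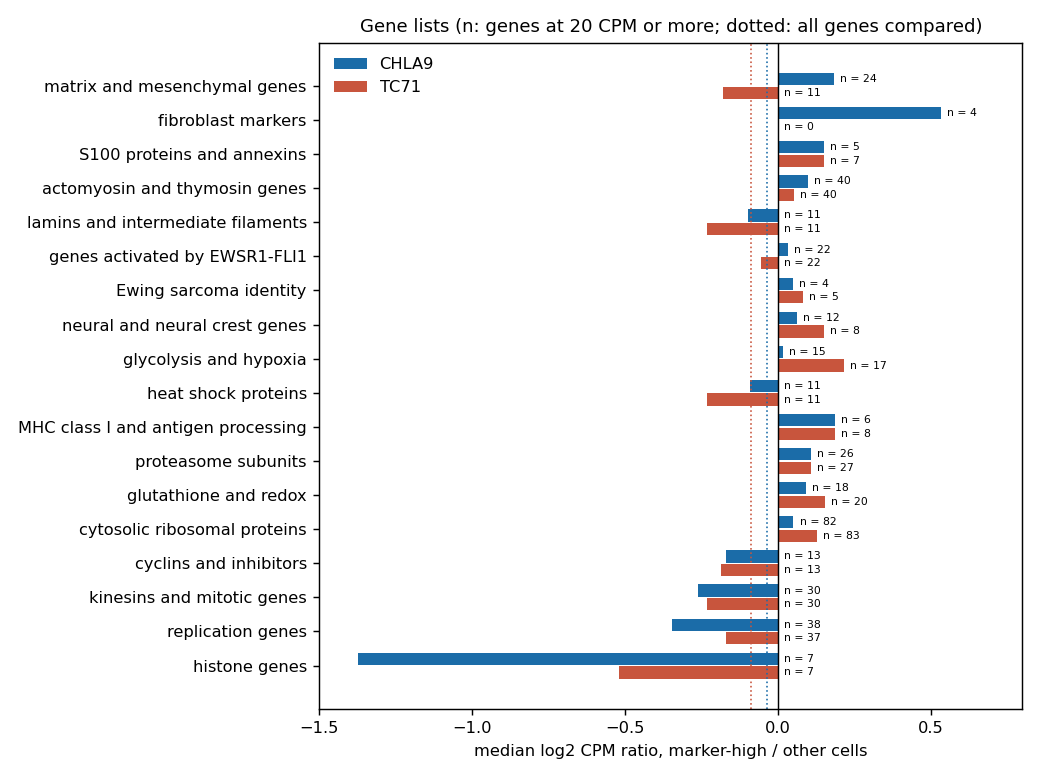
Median log2 CPM ratio between marker-high and other cells for 18 gene lists in CHLA9 (blue) and TC71 (red), with the number of genes compared beside each bar and the median of all genes compared as dotted lines. Fibroblast markers reach 0.53 in CHLA9 and had no gene to compare in TC71, and histone genes reach −1.38 and −0.52.

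Of 17 glycolysis and hypoxia genes compared in TC71, 3 were higher (GAPDH, BNIP3 and DDIT4), against 1.33% of all genes, and 0 lower. The UMIs of BNIP3 and DDIT4 were concentrated in few cells, as given above. In this list 16 of the 17 ratios were above 1, and the median log2 ratio was 0.22 against −0.09 of all genes. GAPDH stood at 2031 against 1498 CPM (1.36, 1.33 to 1.38) and LDHA, lactate dehydrogenase A, at 1529.6 against 1195 CPM (1.28, not called). In CHLA9, 0 of 15 were called and the median was 0.02, with GAPDH at 1.02 and LDHA at 1.15. Proteasome subunits had a median log2 ratio of 0.11 in both, with 24 of 26 ratios above 1 in CHLA9 and 21 of 27 in TC71 and 0 called. Glutathione and redox genes had medians of 0.09 and 0.15 with 0 called, MHC class I and antigen processing genes 0.19 in both with HLA-C called in TC71 (37.3 against 27.8 CPM, 1.34), and ribosomal proteins 0.05 and 0.13. Heat shock proteins had medians of −0.09 and −0.23. HSPA1A, an inducible HSP70, was lower in both lines, at 24.7 against 33.2 CPM (0.744) and at 45.0003 against 63.4 CPM (0.71), and DNAJB1, its cochaperone, at 19.9 against 31.6 CPM in TC71 (0.631).

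The remaining lists had few calls in most cases. They are read beside the shares of all genes, 0.59% higher and 3.26% lower in CHLA9 and 1.33% and 9.81% in TC71. Of the p53 pathway, 0 of 10 genes were called in CHLA9 and 1 of 7 in TC71 (MDM2, 36.4 against 55.4 CPM, lower), of the immediate early genes 0 of 7 and 1 of 9 (MCL1, lower), of the NF-kappaB targets 0 of 3 and 0 of 5, and of the genes of endoplasmic reticulum stress and ATF4 1 of 12 (MTHFD2, lower) and 0 of 15. Of the neural and neural crest genes, MAP1B was higher in CHLA9, at 194 against 148 CPM (1.31, 1.26 to 1.36), and 0 of 8 were called in TC71. Of the cyclins and their inhibitors, 4 of 13 were lower in CHLA9, against 3.26% of all genes, and 1 of 13 in TC71, with median log2 ratios of −0.17 and −0.19, and CCNA2, cyclin A2, was lower in both (0.741 and 0.697). Of galectins and TIMPs other than the markers, LGALS3 was higher in CHLA9 and LGALS3BP in TC71 (66.3 against 40.2 CPM, 1.65). The nuclear RNA MALAT1 stood at 13111 against 17162 CPM in CHLA9 (0.764) and at 5809 against 7306 CPM in TC71 (0.795).

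The lower genes of TC71 were on the whole those with long transcripts. When the 5378 genes compared in both lines were put into 4 equal groups by the length of their longest annotated transcript, with medians of 1601, 3012, 4609 and 7839 bases, the median log2 ratio in TC71 went from 0.08 in the shortest through −0.05 and −0.16 to −0.23 in the longest. In CHLA9 the medians were 0.04, −0.02, −0.06 and −0.09. Of the genes called lower in TC71, 17 were in the shortest group and 269 in the longest, while in CHLA9 the groups held 25, 43, 51 and 47. The longest annotated transcripts of the 7 markers run from 461 bases for TMSB10 to 3616 for LMNA. The part of length in the result was not tested. The 5 lowest genes of TC71 were ERCC6L (13.02 against 24.2 CPM, 0.538), AVPR1A, a vasopressin receptor (11.3 against 21.0 CPM, 0.539), CLDN1, claudin-1 of tight junctions (33.9 against 60.5 CPM, 0.56), DOT1L, a histone H3 methyltransferase (16.1 against 28.6 CPM, 0.562), and XPO7, a nuclear export receptor (18.6 against 32.9 CPM, 0.565). AVPR1A had 0 UMIs in CHLA9, CLDN1 stood there at 148 against 120.4 CPM (1.23), DOT1L had a ratio of 0.747 and XPO7 of 0.908.

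**Figure D5:**
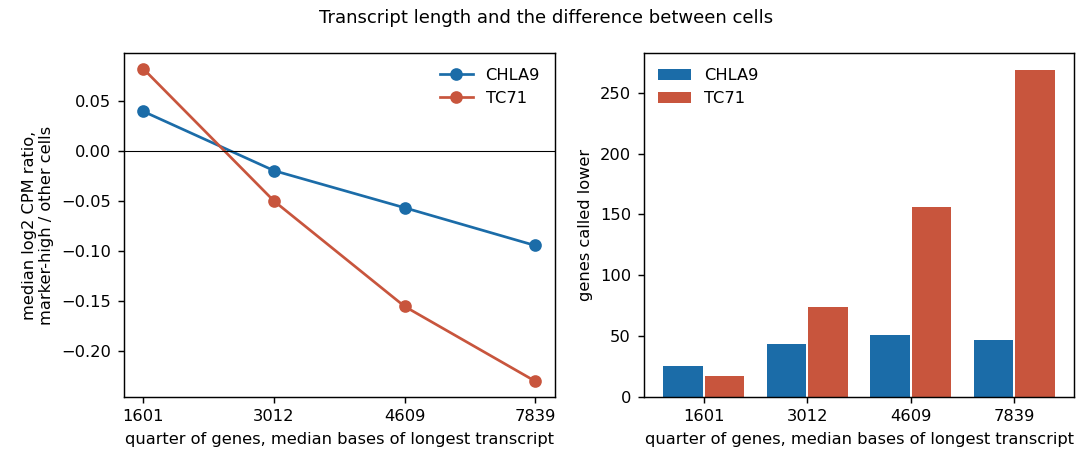
Left, median log2 CPM ratio between marker-high and other cells, and right, number of genes called lower, in 4 equal groups of genes by longest transcript, labelled by their median bases, in CHLA9 (blue) and TC71 (red). The median falls from 0.08 to −0.23 in TC71 and from 0.04 to −0.09 in CHLA9, and genes called lower in TC71 go from 17 to 269.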

How the data were processed

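Single-cell transcriptomes of CHLA9 and TC71, 1 library each, were taken from the deposited matrices. The authors counted UMIs per gene and barcode with Cell Ranger 3.1.0 on hg38, per the labels, and deposited raw counts without normalization for 33538 genes. Both lines are established cell lines.

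Of 5077 barcodes of CHLA9, 277 were removed for UMIs, 95 for genes and 181 for mitochondrial UMIs. Of 8468 barcodes of TC71, 5869, 269 and 601 were removed, and 4524 and 1729 cells were kept. Levels were summed UMIs as CPM. Intervals were exact (Poisson, conditional binomial for ratios, Clopper-Pearson for shares) at 95% with scipy 1.17.1, and cover counting error only. No test was made, as each line had 1 library. Phases were scored with Seurat 5.3.0 in R 4.3.3, doublets with Scrublet in scanpy 1.11.5, and matrices were handled with numpy 2.4.6 and pandas 2.3.3, with a seed of 1. Transcript lengths came from GENCODE 44 (GRCh38) by gene identifier, and promoters from RefSeq.

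The cells, the 26 gene lists and the tests were chosen with earlier results of these data known. Named genes were the 7 markers, the 10 genes with the largest mean change in each direction among those called in both lines, the 5 with the largest ratio in each direction in each line, the 3 highest and 3 lowest of each list by mean over the lines, and FLI1, EWSR1, S100A10 and SPARC. COL1A2, COL3A1, COL5A1, COL6A1, KRT8 and PDGFRB, genes named as the called members of a list, and the NEFM cells with TMSB4X and ANXA1 were named after their values were seen. A gene withheld from the text is counted in totals but not reported here.

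The choice of cells and the calls were tested on simulated data, 1000 cells per line. With the CHLA9 profile and 6605 genes, 100% of planted cells were found, 100% of planted higher and 98% of planted lower genes were called, and 0.0937% and 0.25% of unplanted genes were called higher and lower. With the TC71 profile and 5922 genes these values were 99%, 100%, 95%, 0.14% and 0.577%. The planted higher and lower genes had median ratios of 1.6 and 0.607 with the CHLA9 profile. With the TC71 profile these were 1.58 and 0.611. In the data, by contrast, the score had no gap at the limit and several calls lay close to 1.3. The simulation therefore does not show how well cells or genes near these limits are recovered. Alternatives to the scaling, depth, cell filters, doublets, score and limits on genes were run as listed in the closing section. Figures were drawn with matplotlib 3.10.9.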

Additional observations from a re-analysis of the deposited data

Results flagged for a closer look

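For 6 named genes the ratio between marker-high and other cells lay on opposite sides of 1 in the lines, with counting intervals that did not reach 1. With 1 library of each line, whether the lines differ was not tested. CLDN1, claudin-1, had a log2 ratio of 0.30 in CHLA9 and −0.84 in TC71. EMD, emerin of the nuclear envelope, had 0.13 and −0.18. CALR, the chaperone calreticulin, had 0.043 and −0.14. HSP90AA1, a cytosolic chaperone, had 0.13 and −0.27. SOX11, a transcription factor of neural progenitors, had 0.068 and −0.24. PHGDH, the entry enzyme of serine synthesis, pointed the other way, with −0.072 in CHLA9 and 0.25 in TC71.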

How the results depend on the processing

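No paired analysis was possible because there was 1 library per line and no replicate numbers, and no replicate could be left out. Reading only genes at 1 CPM or more gave 431 higher and 804 lower in CHLA9, 801 and 2181 in TC71, and 95 and 269 in both lines, and at 50 CPM or more 14 and 100, 35 and 181, and 2 and 30. Taking the top 20% gave 22 higher and 91 lower in CHLA9, 47 and 346 in TC71, 4 and 20 in both lines and 39.0% of CHLA9 cells in G1, and the top 5% 177 higher in TC71. Taking the top 10% within each phase gave 22 higher and 38 lower in CHLA9, and 2 and 6 in both lines. Taking it within 10 groups of total UMIs gave 60 lower in CHLA9, 363 lower in TC71, 4 higher and 12 lower in both lines, and 37.3% of CHLA9 cells in G1. Centring on the median ratio gave 202 higher and 271 lower in TC71, and 44 lower in both lines. Choosing cells on a random part of the UMIs and reading the rest gave 4 higher and 44 lower in both lines. Thinning to 5000 UMIs gave 79 higher in CHLA9, 263 higher and 878 lower in TC71, and 37.6% of CHLA9 cells in G1. The summed share as score gave 132 higher and 1049 lower in TC71, 120 lower in both lines and 54.9% of TC71 cells in G1. Scaled markers and a limit of 10% mitochondrial UMIs each gave 5 higher in both lines. The G1 share of TC71 was 27.7% with genes found in at least 10 cells and 26.7% after thinning to 10000 UMIs. The causes were not tested, beyond the fewer or more genes that a limit on CPM lets in.

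Of the other counts and shares, 72 stayed within 1.5 times or within their interval. Of 289 log2 ratios of named genes in a line, 73 changed sign in at least 1 alternative, 70 of them among the 186 inside the limits of a call. Of the 103 past those limits, the sign changed for HIST1H1D (0.19) and HSPA1A (0.086) in TC71 after thinning, and for CCNE2 in CHLA9 (0.0035) with the summed share. Without the 2 NEFM cells of CHLA9, a choice made after seeing the data, 35 of its 39 higher and 201 of its 215 lower genes remained called. Some alternatives kept fewer. Thinning to 5000 UMIs chose 228 of the 452 marker-high cells of CHLA9 again and 96 of the 173 of TC71. Of the higher genes, 15 of 39 and 38 of 79 then remained, and of the lower genes 89 of 215 and 267 of 581. With the UMIs split, 20 of 39 and 48 of 79 higher genes remained, and with the summed share 18 of 39 and 61 of 79. The genes under 20 CPM were not compared, and they include most mesenchymal genes of TC71.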
